A study of Mus musculus with 16 samples.

Results

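The genes of 4 C/EBP transcription factors, Cebpa, Cebpb, Cebpd and Cebpg, were examined for RNA crosslinked to the coactivator PGC-1α in mouse primary hepatocytes. The regions were chosen by their measured position: one belonged to them when its midpoint lay within the annotated bounds of one of these genes on the same strand (mm10, GENCODE M21). Of 1331383 clusters (regions of piled-up reads) in 8 immunoprecipitated (IP) libraries, 199 qualified, and of 8478 rows in the authors' 4 deposited lists of reproducible peaks, 18 did. The nearest same-strand cluster outside a gene lay 798 nt beyond Cebpb, and for the other genes the nearest was at least 74664 nt away. The midpoints nearest to a bound from inside lay 56 to 561 nt from it, and 0 clusters crossed a bound.

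The hepatocytes were from C57BL/6J mice. After overnight starvation, the treated cells received 200 nM glucagon during 3 h, and the controls are labelled untreated. The labels carry the same protocol text for both, so whether the controls also spent the night in starvation medium is not clear, and it would change what a difference between the treatments means. All cells were crosslinked with ultraviolet light of 254 nm at 400 mJ/cm2, and the RNA on endogenous PGC-1α was read by single-end eCLIP from an upper and a lower band, each in 2 replicates per treatment. Whether the replicates were separate animals or cultures is not in the labels, and the p-values rest on differences among libraries that may be no more than technical. Clusters per IP library numbered 26279 to 260814, the fewest in glucagon lower band replicate 1, and read depth is unknown. Of the hepatocyte markers, 9 of 10 were matched to the annotation and all 9 had clusters, with summed cluster shares of 364.9 to 1351 per 100000 in the glucagon libraries and 179.8 to 276.0 in the controls. The sum was not shared evenly, with Cps1 at 154.5 to 521.3 against 29.6 to 49.8, while Hnf4a went the other way, at 13.8 to 18.29 against 18.33 to 23.6. Clusters were absent from all 6 stellate and all 4 erythroid markers and present in 1 of 6 Kupffer cell markers, 1 of 6 endothelial markers and 2 of 5 cholangiocyte markers. Kupffer markers summed to 1.44 to 26.6 per 100000 in glucagon libraries and 1.92 to 4.52 in controls, cholangiocyte markers to 0 to 7.61 against 0.561 to 5.0, and the endothelial marker to 0 in every glucagon library against 0 to 0.417 in controls. The part of other cell types in the results was not tested.

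C/EBP proteins bind DNA as dimers through a basic region and a leucine zipper at their carboxyl end. In the liver, C/EBPα maintains the hepatocyte programme and supports genes of glucose production, whereas C/EBPβ and C/EBPδ are induced in the acute phase response and C/EBPβ also by cAMP. C/EBPγ lacks a transactivation domain of its own and acts as a dimer partner of other bZIP factors, ATF4 among them. Cebpa and Cebpb are known for start codons inside the reading frame that give shorter proteins.

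Within the C/EBP genes, enrichment over input lay in the coding sequence of Cebpa and around the first exons of Cebpg. Cebpa held 72 clusters, Cebpg 104, Cebpb 21 and Cebpd 2. A cluster was called enriched when both its deposited log2 fold over input and its −log10 p were at least 3, which 2.7% of all clusters met. By that measure 30 Cebpa clusters (41.7%) and 7 Cebpg clusters (6.73%) were enriched, against 0 in Cebpb and 0 in Cebpd. Some Cebpa clusters were touching pieces of 1 stretch in the same library, and each piece was counted. In the reproducible lists Cebpa had 16 rows and Cebpg 2. Of 13182 genes with a cluster, 9.38% had a row in some list and 90 (0.683%) had one in all 4, Cebpa among them. These values describe the clusters that the choice of genes already used and were not tested.

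Cebpa (chr7:35119293-35121928, plus strand) has a transcript of 1 exon with a coding sequence of 1077 nt. A second annotated transcript removes an intron from that exon. Its clusters stacked on 5 short sites in the coding sequence, which carried 58 of the 72 clusters and all 30 enriched ones. The sites were 21 to 29 nt wide, began 182 to 241 nt apart, and covered 132 nt, or 12.3% of the coding sequence. The reads behind these short, stacked clusters were not analysed here, and whether they came from the cells' own Cebpa transcript was not tested. That limit holds for every Cebpa fold and count given here. Their sequences are shown because the enrichment in Cebpa came from these bases alone; they were read from the GENCODE M21 transcript (mm10, plus strand, 5′ to 3′), and capitals mark bases that clusters covered in at least 6 of the 8 libraries.
Cebpa site 1, chr7:35119417-35119445: cCATGGAGTCGGCCGACTTCTACgaggtg
Cebpa site 2, chr7:35119640-35119667: cgacGAGTTCCTGGCCGACCTCTTCcag
Cebpa site 3, chr7:35119822-35119842: gCTACCTGGACGGCAGGCTGg
Cebpa site 4, chr7:35120019-35120045: caCTTGCAGTTCCAGATCGCGCACTGc
Cebpa site 6, chr7:35120260-35120286: agaaCAGCAACGAGTACCGGGTacggc

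Site 1 spans the annotated start codon and codons 1 to 9. Site 2 covers codons 74 to 83, site 3 codons 135 to 142, site 4 codons 201 to 209, and site 6 codons 281 to 290, where the basic DNA-binding region begins. Sites 3 and 4 lie in the segment that the second transcript removes. The core in capitals measured 18 to 24 nt and was unbroken in each site. Among the other annotated genes, 0 held an exact match to any of the 5 sequences in a transcript. The GC content of sites 1, 2, 3, 4 and 6 was 62.1%, 64.3%, 71.4%, 59.3% and 59.3%, against 71.9% for the whole Cebpa coding sequence. A site 5, directly after site 4, had clusters in 3 libraries, and the remaining clusters lay near the stop codon or in the 3′ UTR. None of these 14 clusters outside the 5 sites was enriched.

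**Figure D1:**
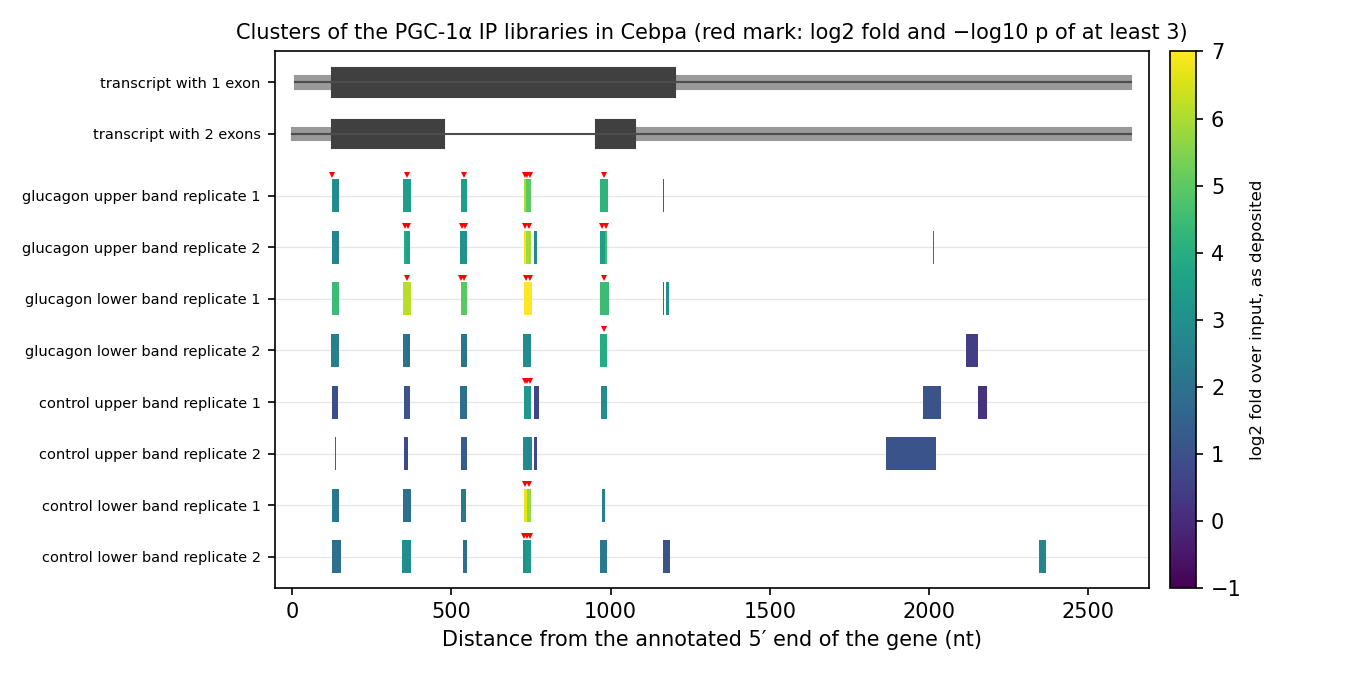
Clusters in Cebpa by distance from the 5′ end of the gene (nt), with 1 row per IP library, colour for the deposited log2 fold over input and a red mark over each enriched cluster. The transcripts stand on top, with thick boxes for coding sequence, and the 5 coding sites line up in nearly every library.

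The sites kept their place across libraries. Sites 1 to 4 had a cluster in all 8 libraries and site 6 in 7, missing only control upper band replicate 2. At site 4 the first base varied by 3 nt and the last base by 1 nt across the 8 libraries. Cebpa held 7 to 11 clusters in every library, whatever the library's total. Its median cluster width was 14 nt, against a median of 43 nt over the 5608 genes with at least 50 clusters. Only 7 of those genes, Cebpa included, had a median that short. Cebpg had a median width of 52 nt.

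Site 4 had the highest log2 fold in Cebpa in 7 of 8 libraries, the exception being glucagon lower band replicate 2, where site 6 was higher. Its highest log2 fold over input was 5.95 and 6.89 in the glucagon upper band replicates 1 and 2 and 7.17 and 2.89 in the glucagon lower band replicates, against 3.30 and 2.79 in the control upper band and 6.73 and 3.31 in the control lower band. The upper band groups did not overlap and the lower band groups did. In control lower band replicate 1 this cluster had the highest log2 fold of the whole library. The highest Cebpa cluster by log2 fold lay at site 6 in glucagon lower band replicate 2 and at site 4 elsewhere. It ranked 9 of 97629 and 4 of 207718 clusters in the glucagon upper band libraries. In the glucagon lower band it ranked 11 of 26279 and 617 of 188011. Control ranks were 4982 of 240002 and 14383 of 260814 in the upper band and 6819 of 178308 in lower band replicate 2. Site 4 was enriched in 3 glucagon and 3 control libraries.

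At site 6 the glucagon libraries were all above the controls. The highest log2 fold was 4.18 and 4.48 in the glucagon upper band and 4.47 and 3.93 in the glucagon lower band, against 2.91 in control upper band replicate 1 and 2.40 and 2.20 in the control lower band. With a mean of 4.26 ± 0.26 (SD, n = 4) in glucagon libraries and 2.50 ± 0.37 (SD, n = 3) in the controls with a cluster, the groups did not overlap. The site was enriched in 4 of 4 glucagon libraries and 0 of 4 controls. It was 1 of 5 recurrent Cebpa sites, and how many sites of other genes separate in this way was not counted. By the highest log2 fold of a whole gene, 4.06% of 4584 genes were higher with glucagon without overlap in either band and 3.34% lower.

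Sites 1, 2 and 3 had higher means with glucagon, with overlap between single libraries. Site 2 reached log2 folds of 3.44 and 3.93 in the glucagon upper band and 6.17 and 2.09 in the lower band, against 1.03 and 0.73 in the control upper band and 1.93 and 2.93 in the lower band. Site 3 reached 3.44 and 3.12 in the glucagon upper band and 4.93 and 2.07 in the lower band, against 1.91 and 1.31 in the control upper band and 2.23 and 1.93 in the lower band. Glucagon lower band replicate 2 was the library that fell among the controls at both sites. At site 1, over the start codon, log2 folds were 3.27 and 2.60 in the glucagon upper band and 4.47 and 2.43 in the lower band, against 0.91 and 1.73 in the control upper band and 2.56 and 1.93 in the lower band. Sites 2 and 3 were each enriched in 3 glucagon and 0 control libraries, and site 1 in 1 glucagon and 0 control libraries. The site 1 cluster of glucagon lower band replicate 1 passed the fold threshold with a −log10 p of 2.62. The 5 sites share a transcript and the same libraries, so they are not independent observations, and single sites were not tested.

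**Figure D2:**
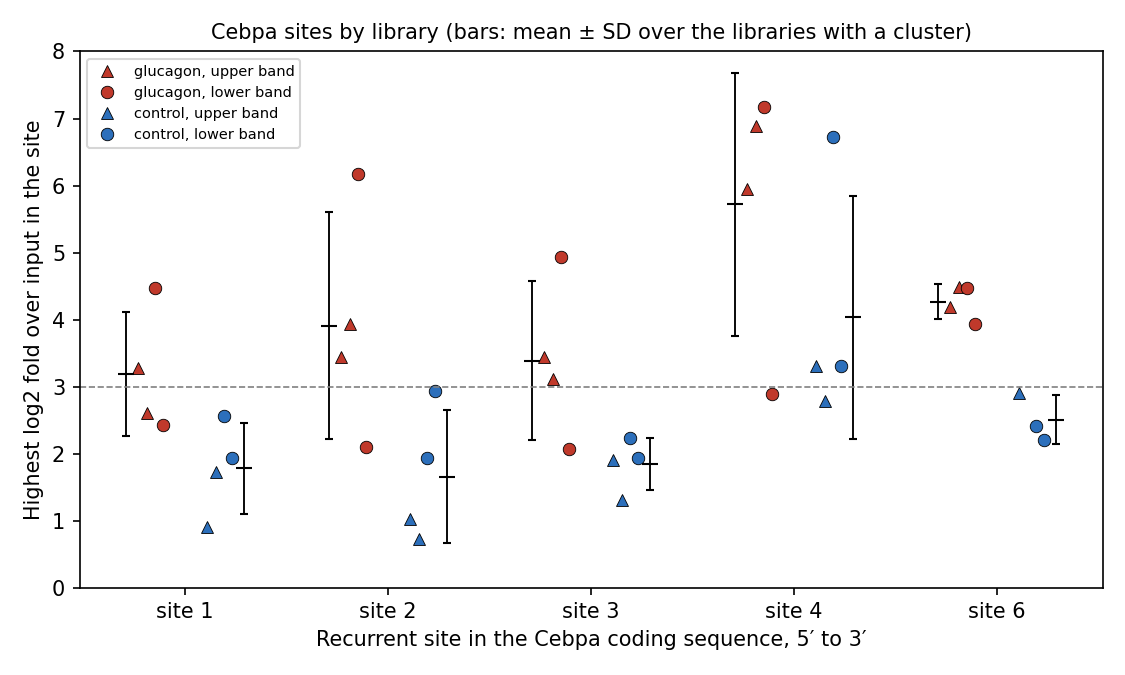
Highest deposited log2 fold over input at each recurrent Cebpa site, with 1 point per IP library, glucagon left of control, triangles for the upper and circles for the lower band, and bars for mean ± SD. The dashed line is the enrichment threshold of 3, and the groups are apart at site 6 alone, where control upper band replicate 2 had no cluster.

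Over the whole gene, Cebpa clusters averaged a higher log2 fold with glucagon, by more than the replicate spread in the upper band only, as 49.9% of all tested genes did in that band (4.89% lay lower). The length-weighted mean log2 fold was 3.80 and 3.81 in the glucagon upper band and 5.26 and 2.13 in the glucagon lower band, against 1.41 and 1.25 in the control upper band and 3.10 and 2.34 in the control lower band. The upper band difference was 2.48 (3.81 ± 0.01 with glucagon against 1.33 ± 0.12 in controls, SD, n = 2 each), and the lower band difference 0.97 (3.69 ± 2.22 against 2.72 ± 0.54), with overlap. In the lower band 7.68% of all tested genes lay higher with glucagon without overlap and 7.37% lower. Across both bands the difference was 1.72 (exact two-sided permutation p = 0.167, adjusted p = 0.805 over 4584 genes, and 0.0556 the smallest p that the 36 assignments allow). It was 0.53 (exact permutation p = 0.5) when the mean took in only clusters whose −log10 p reached 3, 0.94 without glucagon lower band replicate 1, and 2.51 without glucagon lower band replicate 2. No gene could reach 0.05 in this design. Of the 4584 genes, 3.21% lay higher with glucagon without overlap in either band and 1.16% lower, and Cebpa was in neither group because its lower band libraries overlapped. The median gene differed by 0.28.

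The counts of enriched Cebpa clusters went the same way, with 22 of 38 clusters in the glucagon libraries and 8 of 34 in the controls. By library they were 7 and 8 in the glucagon upper band and 6 and 1 in the glucagon lower band, against 3 and 0 in the control upper band and 2 and 3 in the control lower band. Touching pieces of 1 site were each counted here. Taken once per library, site 4 was enriched in 3 glucagon and 3 control libraries and sites 2 and 3 each in 3 and 0. Site 6 was enriched in 4 and 0 and site 1 in 1 and 0. Over all genes 2.83% of glucagon clusters and 2.62% of control clusters were enriched. Without glucagon upper band replicate 2 the glucagon count was 14, and without control lower band replicate 2 or control upper band replicate 1 the control count was 5.

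The 4 reproducible lists differed in how many of these sites they held. The glucagon upper band list had 9 Cebpa rows, at sites 2, 3, 4 and 6, and the glucagon lower band list 2, at site 4. The control upper band list had 2 and the control lower band list 3, also all at site 4. The lists hold 2167, 413, 3692 and 2206 rows in that order. In the authors' deposited lists the highest log2 fold at site 4 was 6.42 in the glucagon upper band and 5.03 in the glucagon lower band, against 3.04 in the control upper band and 5.02 in the control lower band. The glucagon lower band rows had 7.17 in replicate 1 and only 2.89 or 2.84 in replicate 2, so they passed the threshold in 1 of 2 libraries. The same held for both Cebpa rows of the control upper band list, with 3.30 in replicate 1 and 2.73 in replicate 2. Site 6 was enriched in both glucagon lower band libraries but had no row in that list. The rule behind the lists is not given in the sources used here.

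Cebpb (chr2:167688915-167690418, plus strand), which has a single exon, had clusters in every library and none above the enrichment threshold. Its 21 clusters had log2 folds of -1.03 to 1.47, with a median of 0.02, and 11 of them were above 0. The mean log2 fold was 0.16 and -0.54 in the glucagon upper band and 1.47 and 0.02 in the glucagon lower band, against 0.56 and -0.02 in the control upper band and 0.30 and -0.33 in the control lower band. The treatments overlapped in both bands, with a difference of 0.15 (exact permutation p = 0.833, adjusted p = 0.933). The coding sequence held 14 clusters, the 3′ UTR 6 and the 5′ UTR 1. Cebpb and Cebpa coding sequences had a GC content of 73.4% and 71.9%.

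The strand opposite Cebpb carried enriched clusters. They lie in Tmem189, a gene on the minus strand whose bounds (chr2:167642608-167689822) overlap Cebpb. Within the Cebpb bounds, the opposite strand had 20 clusters, 10 of them enriched. All 10 were in controls, 3 and 3 in the upper band and 3 and 1 in the lower band, against 0 in each glucagon library. Clusters of any fold numbered 2 and 2 in the glucagon upper band and 0 and 2 in the lower band. In controls they numbered 5 and 3 in the upper band and 3 and 3 in the lower band. Of all clusters, 2.83% in glucagon libraries and 2.62% in controls were enriched. The authors' deposited lists had 2 such rows for the control upper band and 1 for the control lower band. Highest log2 folds there were 4.18 and 3.89 in the glucagon upper band and 2.65 in glucagon lower band replicate 2, against 4.72 and 4.05 in the control upper band and 4.28 and 4.197 in the control lower band. The glucagon upper band clusters missed the −log10 p threshold rather than the fold, with values up to 2.99. The opposite strand of Cebpa, Cebpd and Cebpg had 0 clusters.

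Cebpd (chr16:15887286-15891031, plus strand), with a single-exon coding transcript, had 2 clusters. One lay in its coding sequence in glucagon lower band replicate 2 with a log2 fold of 0.43, and the other in its 3′ UTR in control lower band replicate 1 with a log2 fold of 2.40. With a cluster in 2 of 8 libraries, it was not tested. Its coding sequence had a GC content of 70.4%.

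Cebpg (chr7:35046422-35056573, minus strand), the spliced member, had the most clusters, and their enrichment lay at its 5′ end. The 38 clusters around its alternative first exons (chr7:35055281-35056452) included all 7 enriched ones, while the last exon had 57 clusters and the stretch between them 9, with 0 enriched in either. The median log2 fold was 2.24 around the first exons, 1.21 in the last exon and 1.31 between. By annotation, 27 clusters were intronic (5 enriched), 17 in the 5′ UTR (1 enriched), 9 in a noncoding exon (1 enriched), 42 in the 3′ UTR (0) and 9 in the coding sequence (0). The noncoding genes Gm44836 and Gm45094 lie on the same strand inside Cebpg, and 7 and 1 of these clusters also fall in them, with 0 enriched.

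The preference for the 5′ end of Cebpg was present in 7 of 8 libraries. The mean log2 fold around the first exons minus that in the last exon was 0.48 and 1.13 in the glucagon upper band and -0.17 and 0.41 in the glucagon lower band, against 1.55 and 1.35 in the control upper band and 1.49 and 1.15 in the control lower band. The negative value came from glucagon lower band replicate 1, with 1 cluster in each part. All control values were above all glucagon values. The closest were 1.15 in control lower band replicate 2 and 1.13 in glucagon upper band replicate 2. The glucagon values rest on 1 to 6 clusters around the first exons and the control values on 5 to 7. How many other genes separate this way was not counted. Both parts were drawn after the clusters had been seen, so the preference for the 5′ end was not tested.

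**Figure D3:**
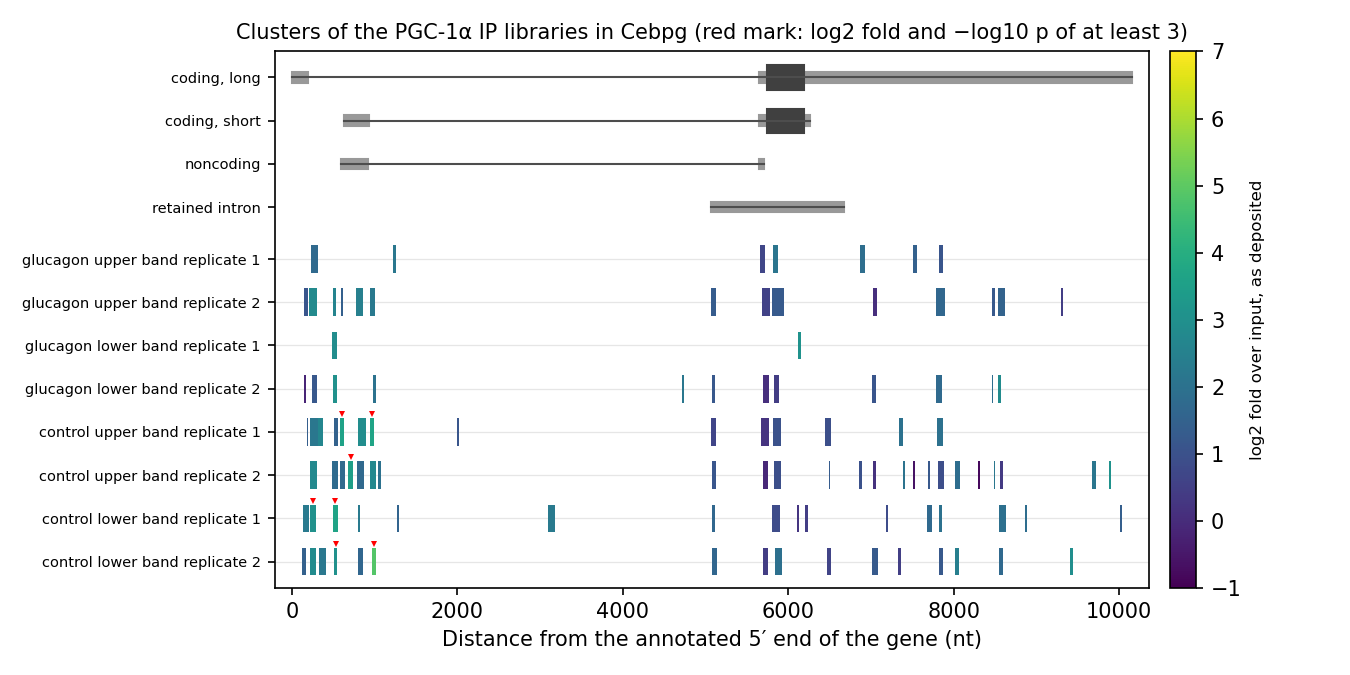
Clusters in Cebpg by distance from the 5′ end of the gene (nt), with 1 row per IP library, colour for the deposited log2 fold over input and a red mark over each enriched cluster. The annotated transcripts stand on top, and the 7 red marks all lie near the alternative first exons in control libraries.

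Enriched Cebpg clusters were found in 4 of 4 controls and 0 of 4 glucagon libraries. The control upper band libraries had 2 and 1 and the control lower band libraries 2 and 2. Of all clusters, 2.83% in glucagon libraries and 2.62% in controls were enriched. In each glucagon lower band library 1 Cebpg cluster passed the fold threshold, at 3.05 and 3.01. These missed the −log10 p threshold, with values of 1.55 and 1.63. The highest log2 fold in the gene was 2.18 and 2.78 in the glucagon upper band and 3.05 and 3.01 in the glucagon lower band, against 3.66 and 3.48 in the control upper band and 3.63 and 4.86 in the control lower band. The groups did not overlap in this maximum, and 3.34% of the 4584 genes were likewise lower with glucagon without overlap in either band (4.06% higher). The maximum was taken over unequal numbers, 2 to 14 clusters per glucagon library and 14 to 23 per control. The Cebpg total of 35 clusters in glucagon libraries and 69 in controls came from 519637 and 811746 clusters in all. The mean log2 fold over all Cebpg clusters overlapped in both bands, with 1.84 ± 0.75 in glucagon libraries and 1.78 ± 0.16 in controls (SD, n = 4 each) and a difference of 0.06 (exact permutation p = 0.889, adjusted p = 0.962). By the highest log2 fold in the gene the difference was -1.15, at the smallest exact p the design allows (0.0556).

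Both Cebpg rows of the authors' deposited lists were intronic and from control groups. The control upper band row, chr7:35055582-35055624, had a deposited log2 fold of 3.01, while the matching clusters had 3.66 in replicate 1 and 2.73 in replicate 2. This row began 21 nt downstream of a first exon of a coding transcript. The control lower band row, chr7:35056018-35056082, had a deposited log2 fold of 3.37, 294 nt downstream of the first exon of the longest transcript and 35 nt upstream of the first exon of a noncoding one. The genes set beside Cebpg thus held their listed rows in different parts, 16 in the coding sequence of Cebpa and 2 in the introns of Cebpg.

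The genes were then compared by cluster share, the number of clusters in a gene per 100000 clusters of its library. This share is not corrected for the level of the RNA, and in bulk cells fewer cells of a type and less RNA per cell cannot be told apart. Cebpa had 9.22 and 5.30 clusters per 100000 in the glucagon upper band and 34.2 and 4.79 in the glucagon lower band, against 4.17 and 2.68 in the control upper band and 5.28 and 5.61 in the control lower band. Its mean was 13.4 ± 14.0 with glucagon and 4.43 ± 1.32 in controls (SD, n = 4 each; difference 8.95, exact permutation p = 0.167, adjusted p = 0.493 over 9939 genes). The high value was that of the smallest library, and without it the difference was 1.59, against 16.3 without glucagon lower band replicate 2.

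Cebpb and Cebpg shares also overlapped between treatments. Cebpb averaged 2.73 ± 2.11 per 100000 with glucagon and 1.48 ± 0.63 in controls (difference 1.24, exact permutation p = 0.389, adjusted p = 0.676). Cebpg averaged 6.98 ± 0.53 with glucagon and 8.92 ± 2.54 in controls (difference -1.95, exact permutation p = 0.167, adjusted p = 0.493). Of the 9939 genes, 5.37% were higher and 11.8% lower with glucagon without overlap in either band, and none of the 3 tested C/EBP genes was in either group. Within bands, Cebpa and Cebpb lay higher with glucagon in the upper band without overlap (7.26 ± 2.77 against 3.43 ± 1.05, and 3.28 ± 2.60 against 0.99 ± 0.22, SD, n = 2 each), and Cebpg lay lower in the lower band (6.997 ± 0.87 against 10.5 ± 2.19). In the upper band 24.2% of the 9939 genes were higher with glucagon in this way and 28.1% lower, and in the lower band 8.45% were higher and 22.5% lower.

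**Figure D4:**
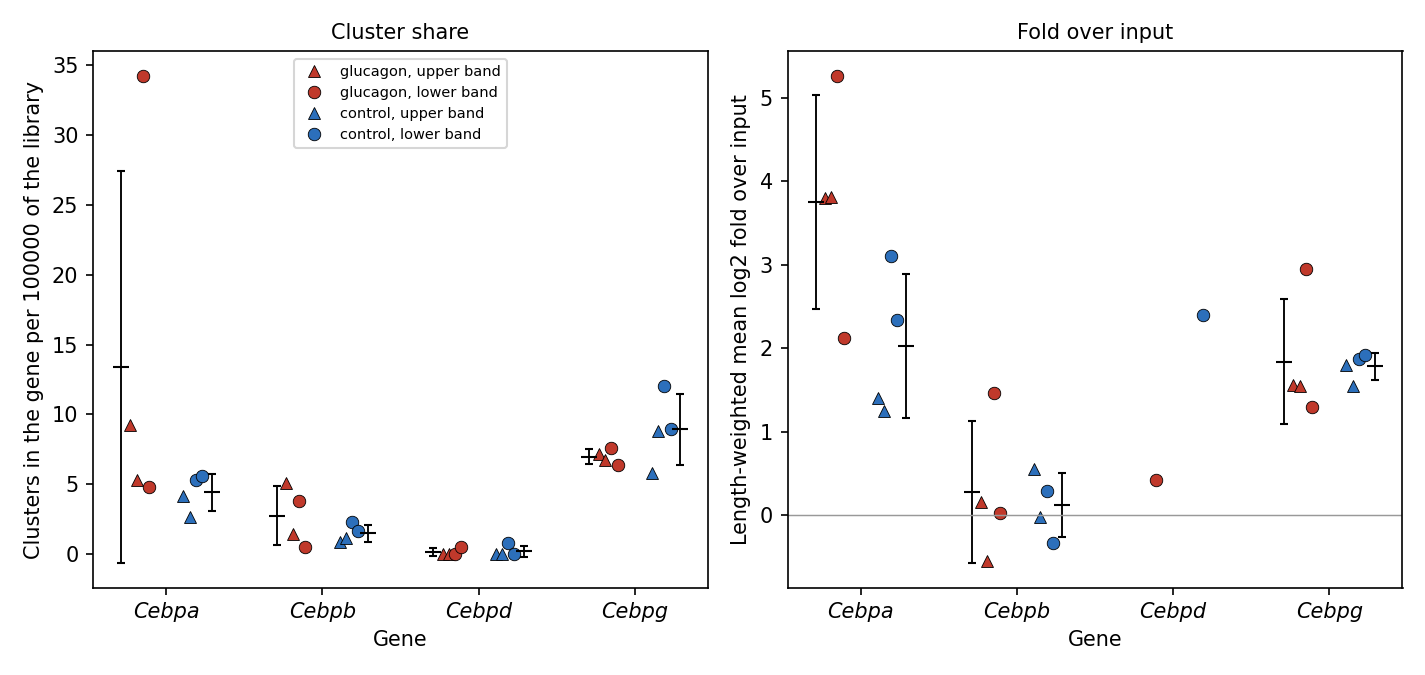
Cluster share (left, clusters per 100000 of the library) and length-weighted mean log2 fold over input (right) of the C/EBP genes, with 1 point per IP library, glucagon left of control and bars for mean ± SD. In mean log2 fold Cebpa lies above Cebpb in every library and above Cebpg in all but the control upper band, its share in glucagon lower band replicate 1 is 34.2, and Cebpd has 2 points on the right because 6 libraries had no cluster.

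The shares of the upper and lower bands overlapped in at least 1 treatment for each gene. The upper minus lower band difference was -7.14 per 100000 for Cebpa (5.34 ± 2.80 in the upper and 12.5 ± 14.5 in the lower band, SD, n = 4 each; exact permutation p = 0.444, adjusted p = 0.830), and 0.23 without glucagon lower band replicate 1. For Cebpb the difference was 0.07 (2.14 ± 2.00 in the upper and 2.07 ± 1.36 in the lower band; exact permutation p = 0.944, adjusted p = 1). For Cebpg it was -1.62 (7.14 ± 1.25 in the upper and 8.76 ± 2.45 in the lower band; exact permutation p = 0.278, adjusted p = 0.816). Over all 9939 genes, 3.4% were higher and 2.86% lower in the upper band without overlap in either treatment, and the 3 tested members were in neither group.

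The genes whose log2 cluster share (share + 1) ran most closely with that of Cebpa over the 8 libraries were H2-Q10 (Pearson r = 0.999), Cd63 (0.996) and BC005537 (0.995). None of the 3 had an enriched cluster. Of 8059 candidate genes, 714 had an r above 0.9 with Cebpa, whose share was highest in the smallest library. For Cebpb the closest were Tfdp1 (0.978), Gna11 (0.966) and Rpl6 (0.962), and 26 candidates exceeded 0.9. The points share their libraries and the library totals.

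Genes with 1 exon were counted as a class. Of 1330 protein-coding genes whose every transcript has 1 exon, 141 had a cluster and 0 a row in a reproducible list. Of all 13182 genes with a cluster, 9.38% had such a row, but these sets were not matched for the number of clusters per gene. Those 141 genes held 1394 clusters, of which 2 (0.143%) were enriched, against 2.7% of all clusters. Cebpb is one of this class, whereas Cebpa and Cebpd each have a second transcript with an intron.

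Among other bZIP genes, Cebpe had 0 clusters, and Ddit3, which encodes the stress-induced C/EBP relative CHOP, had 43 with 0 enriched. A list of 22 other bZIP factors was drawn up as possible partners of C/EBP proteins or binders of their sites, which was not checked for each. Of these, 18 had clusters, 10 an enriched cluster and 5 a listed row. Mafg, a small Maf protein, had the most, with 22 rows and 70 enriched clusters (27 in glucagon libraries and 43 in controls). The others were Mafk with 6 rows, the repressor Nfil3 with 5, the stress factor Atf3 with 3 and Maff with 2. Of the 18 tested by cluster share, 1 was higher with glucagon without overlap in either band, against the 5.37% of all genes, and 0 were lower. It was Jun, with 4.10 to 11.4 clusters per 100000 in glucagon libraries and 1.12 to 3.02 in controls. As 1 cluster amounts to 3.81 per 100000 in glucagon lower band replicate 1, the smallest library, such shares can rest on few clusters. The list's median difference was 2.49, against -0.41 over all tested genes.

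Among 13 regulators of C/EBP protein level or translation, 12 had clusters, 5 an enriched cluster and 2 a listed row. Those were the cap-binding factor Eif4e with 4 rows and the RNA-binding protein Celf1 with 2. Of the 12 tested by share, 3 were lower with glucagon without overlap in either band (11.8% of all genes) and 0 higher. They were Trib1, a pseudokinase that targets C/EBPα for degradation, at 0 to 3.07 per 100000 in glucagon libraries and 4.601 to 6.79 in controls, the kinase gene Eif2ak2 at 0 to 8.51 against 9.05 to 10.7, and Mknk1 at 3.07 to 6.91 against 11.2 to 14.0. The list's median difference was -3.16. In the smallest library, glucagon lower band replicate 1, 1 cluster alone amounts to 3.81 per 100000, so low shares rest on few clusters there.

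Of 18 liver genes with known C/EBP sites, 17 had clusters, 1 an enriched cluster and 0 a listed row. Of the 16 tested by share, 4 were higher with glucagon without overlap in either band and 0 lower, against 5.37% and 11.8% of all genes, and the median difference was 11.4, against -0.41 over all tested genes. Pck1, the gluconeogenic enzyme PEPCK, had 6.74 to 26.6 clusters per 100000 in glucagon libraries and 0.383 to 0.754 in controls. G6pc, the catalytic subunit of glucose-6-phosphatase, had 15.4 to 64.7 against 0.417 to 1.53. Tat, which breaks down tyrosine, had 21.7 to 64.7 against 4.58 to 7.85, and Cps1, the first enzyme of the urea cycle, 154.5 to 521.3 against 29.6 to 49.8. No cluster of these 4 genes met the enrichment thresholds, apart from 1 Pck1 cluster in a control library. Albumin (Alb) overlapped, with 49.1 to 247.3 in glucagon libraries and 41.8 to 64.1 in controls. Cps1, Alb and Ttr are also on the hepatocyte marker list. The marker list's median difference was 14.3, and of its 9 tested genes 2 were higher with glucagon without overlap in either band and 1 lower. A higher median with glucagon was thus not particular to the genes listed for C/EBP sites.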

How the data were processed

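The deposited files list clusters for each of 8 IP libraries and reproducible peaks for each of 4 groups, and the 8 inputs had no file. The submitters' processing notes name cutadapt, STAR and the build mm10. The peak caller is not given in the sources used here. The deposited −log10 p-value (capped at 400) and the deposited log2 fold over input were read from the values, since the files have no header, and both are the authors'. Coordinates are 1-based.

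Midpoints were placed in GENCODE M21. Overlapping or abutting clusters of a gene were joined into sites across libraries. Shares were tested for genes with at least 8 clusters, and length-weighted mean log2 folds for genes with a cluster in all 8 libraries, by exact two-sided permutation within bands (36 assignments), adjusted by Benjamini-Hochberg over all genes. Likeness used genes with at least 16 clusters. The test was tried on simulated data. Members, lists and thresholds were chosen with earlier results of these data known. Named genes were the 4 members, the 3 most alike, listed genes with most rows, and genes without overlap named after their values were seen, Alb and Tmem189 likewise. Alternatives covered thresholds, scaling, the unit counted, centring, the summary of folds, the replicate block and each library left out. The hepatocyte marker symbol Tf was not matched. Tools were bedtools 2.31.1, scipy 1.17.1, pandas 2.3.3, numpy 2.4.6 and Python 3.11.15.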

Additional observations from a re-analysis of the deposited data

How the results depend on the processing

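None of the tests could pass 0.05, so the side of that threshold could not change. Of 147 values under other settings, 123 kept their direction or lay within 1.5 times the count. Part of that number was fixed in advance. The replicate block leaves a difference as it is, and no cluster crossed a gene bound, so counting by 1 shared base changed nothing. Stricter thresholds could not lower the enriched counts of Cebpb and Cebpd, which were 0. Counting clusters without scaling turned the Cebpb treatment difference to -0.25, the Cebpa band difference to 0.5 and the Cebpg band difference to 3. The Cebpb band difference was -0.67 by bases covered and -0.35 over clusters with a log2 fold above 0. Relative to the library's median log2 fold, the treatment difference in mean log2 fold was -0.00803 for Cebpb and -0.10 for Cebpg, and by the highest fold -1.15 for Cebpg. At a log2 fold of at least 4, 15 Cebpa and 1 Cebpg clusters were enriched, and at 2, 18 Cebpg clusters. The Cebpa difference in mean log2 fold was 0.53 over clusters whose −log10 p reached 3, and its share difference was 1 without scaling and 2.13 by bases covered. The causes were not tested.

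With each library left out in turn, the treatment difference in share ranged from 1.59 to 16.3 for Cebpa, 0.32 to 2.16 for Cebpb and -2.72 to -1.17 for Cebpg, the band difference from -14.5 to 0.23, -0.85 to 0.99 and -2.39 to -0.84, and the treatment difference in mean log2 fold from 0.94 to 2.51, -0.21 to 0.51 and -0.36 to 0.47, in the same order of genes. The Cebpa share difference of 1.59 and the Cebpb and Cebpg mean log2 folds of -0.21 and -0.36 came without glucagon lower band replicate 1. Enriched Cebpa clusters numbered 14 to 21 in the remaining glucagon libraries and 5 to 8 in the controls.

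The replicate block (16 assignments, smallest p 0.125) alters only the set of assignments compared, so the differences could not change. Among them were 8.95 for the Cebpa share (exact permutation p = 0.25) and 1.72 for its mean log2 fold (exact permutation p = 0.25). No call could change either, because the smallest p lay above the threshold with the block and without it. The block therefore says nothing about how stable these results are. Deviations of same-numbered libraries correlated at 0.114 to 0.468, but the labels do not say what a number marks. The share of enriched clusters gave no value for Cebpb, which had 0. Read depth is unknown, so intervals on counts could not be formed.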

Other observations

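Within the Cebpa sites, clusters of 1 library often touched end to end, giving 20 touching pairs over the 8 libraries. In 9 pairs both clusters had the same log2 fold, and in 3 pairs they differed by exactly 1, both within 1e-06.

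The authors' deposited log2 fold of the first Cebpa row of the glucagon lower band list was 5.03, against a mean of 5.03 ± 3.03 (SD, n = 2) over the matching clusters of the 2 replicates. For the list row at the end of Cebpa site 3 in the glucagon upper band, the authors' deposited log2 fold was 3.78, against a mean of 3.28 ± 0.23 (SD, n = 2).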
